A study of Mus musculus with 24 samples.

Results

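The 49 genes described here are interferon-stimulated genes of the mouse, transcribed after type I interferon (the alpha and beta interferons), type II interferon (interferon gamma) or both. They were taken from a list of gene names. Chemokines and genes of antigen presentation were left out. All 49 were among the 21755 genes measured in p16-3MR livers. In wild-type livers, 26 of the 49 could be read among 12643 gene labels, because those labels lacked 9 of the lower-case letters and the names of the other 23 matched several genes each. The 23 included all 4 Ifit genes, Isg15, Mx1, Mx2, Rsad2, Irgm1, Irgm2 and 4 of the 5 guanylate-binding protein genes.

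The study asked how removal of p16+ cells affects aged mice of each sex. Liver RNA came from 24 mice, with 3 in each of 8 groups: females or males, given ganciclovir (GCV) or vehicle (VEH, water at pH11), in mice of either genotype, p16-3MR or wild type. p16-3MR mice carry an added artificial chromosome in which the p16Ink4a promoter drives a cassette with luciferase, a red fluorescent protein and a viral thymidine kinase, and the kinase turns GCV into a product that kills the cell. All 12 p16-3MR mice carried this cassette, those given VEH included, and the kinase is made only in cells with an active p16 promoter. Treatment of p16-3MR mice began at 16 to 18 months of age, with a GCV dose of 150 mg/kg in the sample labels, where the study's methods give a lower one, and injections into the abdominal cavity on 5 consecutive days each month. The 12 wild-type mice have no cassette. They began treatment at 6 months of age and received it for 3 months. The p16-3MR livers were batch 1 and the wild-type livers batch 2. Genotype, age and batch therefore cannot be told apart, and no test was made between the tables.

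Interferons bind receptors at the cell surface and activate Janus kinases, which phosphorylate STAT proteins. After type I interferon, a complex with STAT2 and IRF9 binds the interferon-stimulated response element (ISRE). After interferon gamma, the gamma-activated site (GAS) is bound instead, and the induced factor IRF1 acts on ISRE-like elements in turn. The products of the Ifit, Oas and Mx genes act mainly against viral RNA and viral particles, whereas immunity-related GTPases and guanylate-binding proteins attack the vacuoles of intracellular parasites and bacteria. In the liver, hepatocytes, Kupffer cells and endothelial cells all respond to interferon.

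The libraries were 3′-end libraries (Smart-3SEQ), and p16-3MR livers had total counts of 5005760 to 7160172, wild-type livers of 3084517 to 5667904. Levels are given as CPM, counts scaled to the TMM-adjusted library size. By total counts, without the TMM factor, a count of 3 in a library was 0.419 to 0.599 CPM in p16-3MR livers. In wild-type livers it was 0.529 to 0.973 CPM. With the factor, 3 counts were 2.32 CPM in GCV female 33, so low values there rest on few counts. The limit of 3 counts covers counting error only. One library stood apart: in GCV female 33, mitochondrial genes took 64.0% of counts, against 12.3 to 22.4% in the other p16-3MR livers, and its TMM factor was 0.259, against 0.850 to 1.804. The members had 1321 counts there, against 7276 to 27040 in the other 11 livers. It was the lowest liver for 16 of 49 members and for 33.2% of all genes with a mean of at least 10 counts. It was kept, and the comparison of GCV with VEH in p16-3MR females is given without it too. Hepatocyte markers were present in every liver, with summed levels of 24700 to 155600 CPM for 6 of 6 markers in p16-3MR mice and of 12240 to 15610 CPM for the 2 of 6 readable in wild-type mice. Cdkn2a, the gene of p16Ink4a, had 0 to 7 counts per p16-3MR liver, too few for a check of clearance.

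The promoters of the members carried the 2 interferon elements more often than promoters in general. RefSeq starts of GRCm38.p6 were found for 37 of the 49 members, in 46 promoter entries. No entry was found for Dhx58, Zbp1, Oas2, Mx1, Mx2, Usp18, Parp9, Parp14, Gbp9, Iigp1, Rtp4 and Ifi27. In the 250 bases before the start, on either strand, an ISRE core (GAAA, any 2 bases, then GAAA again) was present in 41.3% of member promoters and in 2.98% of all 32851 promoters. A GAS (TTCNNNGAA, the same on both strands) was present in 28.3% of member promoters and in 7.02% of all. By gene, 19 members had an ISRE match, 13 a GAS match and 7 both. A match here means only that these letters are in the window. The ISRE was found in 4 of 4 guanylate-binding protein genes and 4 of 4 immunity-related GTPase genes with an entry, in 3 of 4 Ifit genes, and in none of the 3 sensor genes with an entry. 

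The promoters of 7 members are shown because they display the arrangements of the elements, from ISRE alone to GAS alone. The 150 bases before each start are written 5′ to 3′ on the strand of the gene, with ISRE and GAS matches in capitals. Ifit1 (chr19:34640739-34640888, plus strand) and Isg15 (chr4:156200819-156200968, minus strand) held ISREs only. Irf1 (chr11:53769864-53770013, plus strand, the first of 2 RefSeq starts) held a GAS only. Gbp7 (chr3:142530186-142530335, plus strand) held 2 GAS and 1 ISRE. Igtp (chr11:58199406-58199555, plus strand), Irgm2 (chr11:58214827-58214976, plus strand) and Tgtp1 (chr11:48992247-48992396, minus strand) each held a GAS and, 2 bases after it, an ISRE.
Ifit1: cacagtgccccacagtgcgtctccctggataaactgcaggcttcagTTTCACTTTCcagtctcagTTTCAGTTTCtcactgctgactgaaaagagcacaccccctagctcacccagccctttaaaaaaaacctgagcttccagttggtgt
Isg15: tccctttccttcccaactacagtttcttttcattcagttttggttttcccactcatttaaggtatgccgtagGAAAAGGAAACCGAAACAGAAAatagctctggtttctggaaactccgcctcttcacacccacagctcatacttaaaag
Irf1: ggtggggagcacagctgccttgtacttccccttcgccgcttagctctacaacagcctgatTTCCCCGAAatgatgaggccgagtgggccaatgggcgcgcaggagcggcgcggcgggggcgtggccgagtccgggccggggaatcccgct
Gbp7: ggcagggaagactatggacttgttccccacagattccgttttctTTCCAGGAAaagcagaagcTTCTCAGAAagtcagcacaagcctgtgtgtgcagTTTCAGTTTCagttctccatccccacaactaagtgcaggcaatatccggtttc
Igtp: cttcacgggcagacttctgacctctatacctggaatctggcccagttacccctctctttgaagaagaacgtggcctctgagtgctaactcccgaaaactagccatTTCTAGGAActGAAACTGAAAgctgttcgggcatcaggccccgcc
Irgm2: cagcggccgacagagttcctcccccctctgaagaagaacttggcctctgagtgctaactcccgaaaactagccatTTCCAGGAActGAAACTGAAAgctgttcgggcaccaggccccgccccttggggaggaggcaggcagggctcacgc
Tgtp1: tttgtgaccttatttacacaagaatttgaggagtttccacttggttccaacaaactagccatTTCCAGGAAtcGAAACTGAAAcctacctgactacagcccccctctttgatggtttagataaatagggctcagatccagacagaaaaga
In Ifit1 the ISREs began 104 and 85 bases before the start, both read on the opposite strand, and in Isg15 overlapping matches began at 78, 72 and 66 bases. The GAS began 45 bases before the start in Igtp, 75 in Irgm2 and 88 in Tgtp1, and the ISRE began 34, 64 and 77 bases before it. Thus the pair had the same spacing in these GTPase genes, which lie on chromosome 11. Igtp (chr11:58199556-58207591) and Irgm2 (chr11:58199618-58222782) overlap as annotated on GRCm38, both on the plus strand, but the last 500 bases of their transcripts shared no 31-base word with another gene.

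Levels of the members varied widely between p16-3MR livers, and more than between wild-type livers by the same measure, although the 2 tables hold different members, ages and batches and were not tested against each other. The range of log2 CPM over the 12 livers had a median of 2.89 over the 49 members in p16-3MR mice, from 0.91 for Eif2ak2, a kinase activated by viral double-stranded RNA, to 5.83 for Gbp5, a guanylate-binding protein. In wild-type mice the median range was 1.15 over 26 members, from 0.32 for Iigp1 to 5.62 for Tgtp1. The Gbp5 range included GCV female 33 with 0 counts, and the Tgtp1 range included 1 male with 0 counts. Neither the range over all genes nor that without GCV female 33 is given here. Mean counts per liver ran from 23 (Mx1) to 3815 (Iigp1) in p16-3MR mice and from 4.67 (Oas3) to 1982 (Iigp1) in wild-type mice. Counts at the 3′ end can be split between close copies, and 7 members shared over 10% of the 31-base words of their last 500 transcript bases with another gene. These were Tgtp1 (85.1%, mainly with Tgtp2), Oas1a (70.0%, Oas1g), Trim12c (32.8%, mainly Trim5), Ifit3 (with Ifit3b), Oas3, Gbp9 and Samhd1, whose values are uncertain to that extent.

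In p16-3MR mice the members moved together from liver to liver, and livers of 1 group differed widely. The deviation of a member in a liver is its log2 CPM minus its mean over the 12 livers, and the median deviation over the 49 members was 1.13 in VEH male 24, 0.75 in VEH female 28, 0.44 in VEH female 29 and 0.38 in GCV male 30. It was -0.04 in GCV female 31 and between -0.25 and -0.73 in the other 7 livers. VEH female 28 was above the mean for 47 of 49 members and VEH male 24 for 46, whereas GCV female 35 was above it for 4 and VEH male 26 for 6. VEH male 24 was the highest liver for 23 of 49 members, against 4.51% of all genes with a mean of at least 10 counts. Thus the highest medians were those of 1 VEH male and 2 VEH females, and VEH female 27 and VEH males 25 and 26 were below 0. Across 12 livers, the median Pearson correlation between members was 0.44, against 0.01 for all such gene pairs. It was 0.48 without GCV female 33 and 0.42 without both GCV female 33 and VEH male 24. These correlations describe libraries that share animals, depth and cell content and carry no test.

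**Figure D1:**
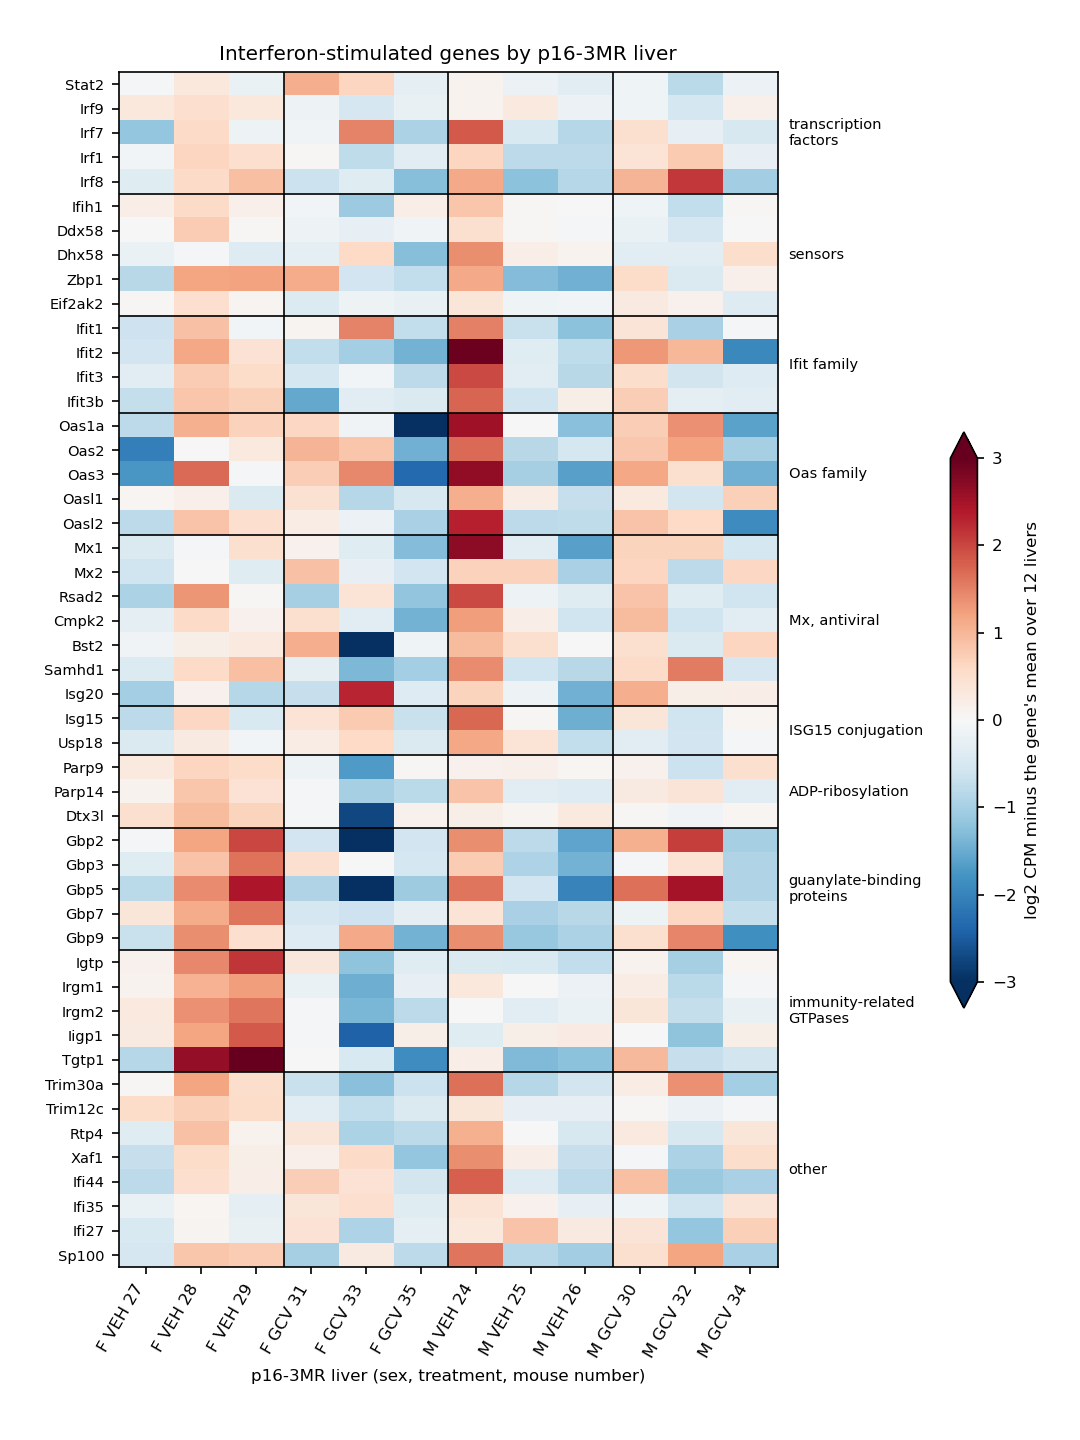
Deviation of each of the 49 interferon-stimulated genes from its own mean over the 12 p16-3MR livers, in log2 CPM, with genes in rows grouped by role and livers in columns grouped by sex and treatment. VEH male 24, VEH female 28 and VEH female 29 have the highest median deviations, 1.13, 0.75 and 0.44.

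VEH male 24 differed from the other high livers in which members were high there. The Ifit products bind foreign RNA ends and the Oas products make the second messenger that activates ribonuclease L. Over these 9 genes, the mean deviation was 2.06 in VEH male 24, where 9 of 9 were above their means, and 0.82, 0.76 and 0.29 in VEH female 28, GCV male 30 and VEH female 29. Over the 5 immunity-related GTPases, the mean deviation was instead 2.01 in VEH female 29, 1.53 in VEH female 28, 0.33 in GCV male 30 and -0.06 in VEH male 24. VEH male 24 was thus the highest liver for the first group and near the mean for the second, while VEH females 28 and 29 and GCV male 30 were above the mean for both. The mean deviation of the 5 guanylate-binding proteins was 1.64 in VEH female 29, 1.42 in GCV male 32, 1.19 in VEH female 28 and 1.11 in VEH male 24. The median correlation was 0.86 among the immunity-related GTPases, 0.66 among the Ifit and Oas genes and 0.24 between these groups, with pairs from -0.35 to 0.61. Without VEH male 24 these medians were 0.86, 0.48 and 0.36, so the lower value between the groups rested in part on that liver.

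**Figure D2:**
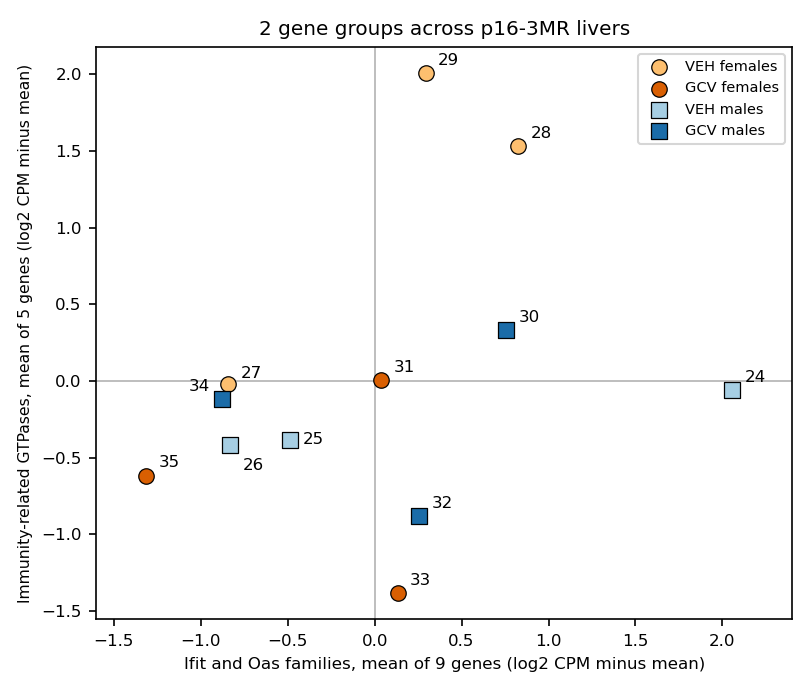
Mean deviation (log2 CPM from the 12-liver mean) of the 9 Ifit and Oas genes on the x axis and of the 5 immunity-related GTPases on the y axis, 1 point per p16-3MR liver with sex and treatment marked. VEH male 24 lies at 2.06 and -0.06, while VEH females 28 and 29 lie at 0.82 and 1.53 and at 0.29 and 2.01.

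Single genes show these patterns. Ifit2, of the Ifit family, was at 64.4 CPM in VEH male 24 and at 6.25 and 4.69 in VEH males 25 and 26. It was at 20.7, 16.6 and 1.92 CPM in GCV males 30, 32 and 34, at 5.36, 18.5 and 11.2 in VEH females 27, 28 and 29, and at 4.82, 3.86 and 2.85 in GCV females 31, 33 and 35. The 3 GCV females, GCV male 34 and VEH male 26 were all under 5 CPM, and the groups of males and the VEH females overlapped. Oasl2, Rsad2 (viperin, which makes a chain-terminating nucleotide) and Mx1 (a GTPase that traps viral nucleoproteins) had 63.3, 60.1 and 15.1 CPM in VEH male 24 and at most 22.4, 38.1 and 3.52 CPM in the other 11 livers. Irf7, the factor that amplifies type I interferon transcription, was at 251.6 CPM in VEH male 24 and next highest, 196.2 CPM, in GCV female 33, the library rich in mitochondrial counts. Levels of Irf7 in the other 10 livers lay between 31.1 and 104.2 CPM, so each of these high values stood alone in its group.

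For other roles, the member with the highest mean CPM shows how far a mean of 3 livers could be moved by 1 liver. Ifih1, the sensor MDA5 of long double-stranded RNA, was at 34.1 ± 14.1 CPM in GCV females, 50.1 ± 8.56 in VEH females, 33.8 ± 8.94 in GCV males and 50.3 ± 17.7 in VEH males (SD, n = 3 each). Ifit1 was at 33.1 ± 26 and 25.5 ± 13.8 CPM in GCV and VEH females and at 20.7 ± 8.96 and 29.1 ± 30.2 CPM in GCV and VEH males. The SD of Ifit1 was as large as the mean in VEH males, where liver 24 had 63.8 CPM and livers 25 and 26 had 13.9 and 9.38. Isg15 had 29.4 CPM in VEH male 24 and 8.93 and 2.97 CPM in VEH males 25 and 26. Bst2, or tetherin, which holds budding virus at the membrane, was at 37.7 ± 37 CPM in GCV females and 39.4 ± 5.69 in VEH females, and the wide first value held 76.7 CPM in GCV female 31 and 3.09 CPM in GCV female 33. Ifi27, a small protein of mitochondrial and nuclear membranes, was not highest in VEH male 24. It was at 38.7 ± 18 and 38.0 ± 7.29 CPM in GCV and VEH females and at 48.8 ± 26.9 and 61.1 ± 15 CPM in GCV and VEH males, with its highest value, 78.4 CPM, in VEH male 25.

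VEH male 24 and GCV male 32 also differed in markers of cell types. The sum of 6 hepatocyte markers was 39400 CPM in VEH male 24 and 24700 in GCV male 32, against 78560 to 155600 in the other 10 p16-3MR livers. The sum of the Kupffer cell markers was 1683 and 2828 CPM in these males, against 107.5 to 932.0 in the others, and that of the monocyte and neutrophil markers was 1048 and 1736 CPM, against 58.3 to 524.0. In VEH females 28 and 29, the Kupffer cell sums were 932.0 and 744.4 CPM, against 291.1 in VEH female 27. In bulk liver, fewer cells of a type and less RNA per cell cannot be told apart, and the part of these markers in the levels of the members was not tested.

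GCV against VEH in p16-3MR females compares the GCV-treated with the vehicle-treated aged females, and these counts hold no check that p16+ cells were lost. The members with an unadjusted p under 0.05 were the 5 immunity-related GTPases, 3 guanylate-binding proteins, the 3 ADP-ribosylation genes, Trim12c and Irf9, all with estimates below 0, but no member was called. With edgeR's quasi-likelihood test and Benjamini-Hochberg adjustment, 0 of 49 members had an adjusted p under 0.05, the lowest being 0.646, and 0% of the 21755 genes were called. DESeq2 called 2 members, Irgm2 (adjusted p = 0.0155) and Trim12c (0.0498), among 90 genes, and 0 members without GCV female 33. The estimates of Irgm2 and Trim12c by edgeR without that liver were -1.63 and -1.08, beside -1.81 and -1.11 with it. At an unadjusted p under 0.05, edgeR's test gave 13 members below 0, against 2.32% of all genes, and 0 above, against 5.05% (7.37% in both directions). Estimates were below 0 for 38 of 49 members, against 49.8% of all genes, and their median log2 fold change was -0.63, against 0 for all genes. With 1 liver left out, this median ran from -0.953 without VEH female 27 to -0.442 without VEH female 28. The 13 became 8 without GCV female 33, against 2.18% of all genes, 7 without VEH female 29, against 1.55%, and 17 without VEH male 24, against 3.21%. VEH male 24 enters this comparison only through the shared estimate of spread, the scaling and the set of genes tested (21327 without it).

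In 15 members the 3 GCV and the 3 VEH females did not overlap, with GCV lower in each, as was so for 7.35% of all genes. These were Irf9, Ddx58, Eif2ak2, Ifit2, Parp9, Parp14, Dtx3l, Gbp2, Gbp5, Gbp7, Irgm1, Irgm2, Iigp1, Trim30a and Trim12c. In the opposite direction there were 0 members, against 5.91% of all genes. Without GCV female 33 the same 15 remained among 20 members without overlap, where 13% of all genes were lower and 11.4% higher.

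The immunity-related GTPases had estimates below 0 for 5 of 5 genes, each with an unadjusted p under 0.05, and a median log2 fold change of -1.73 (-1.51 without GCV female 33, with 4 at an unadjusted p under 0.05). Irgm2, a regulator that keeps the effector GTPases off the membranes of the cell itself, was at 52.8, 20.9 and 31.5 CPM in GCV females 31, 33 and 35 and at 66.4, 140.8 and 166.0 CPM in VEH females 27, 28 and 29. The groups did not overlap, VEH female 27 being the nearest to the GCV females. The log2 fold change was -1.81 (SE 0.45, adjusted p = 0.646, edgeR's quasi-likelihood test), the lowest p among the members and number 35 among all genes. Igtp, also called Irgm3 and of the same regulatory group, was at 41.1, 13.9 and 25.2 CPM with GCV and at 35.3, 88.8 and 145.7 CPM with VEH, so that VEH female 27 lay inside the GCV range (log2 fold change -1.73, SE 0.52, adjusted p = 0.646, edgeR). Tgtp1, an effector GTPase whose reads may be shared with Tgtp2, was at 17.7, 13.1 and 4.70 CPM with GCV and at 9.79, 112.9 and 167.6 CPM with VEH. VEH females 28 and 29 were far above the other 4 females, and VEH female 27 was among the GCV values (log2 fold change -3.04, SE 0.87, adjusted p = 0.646, edgeR). Iigp1, the effector that coats parasite vacuoles, averaged 337.6 ± 223 CPM with GCV and 1044 ± 531 with VEH (SD, n = 3), and the GCV female at 82.7 CPM was number 33. Irgm1 gave -1.39 (SE 0.43) and did not overlap.

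Of the guanylate-binding proteins, which help to break open pathogen vacuoles and activate inflammasomes, 5 of 5 had estimates below 0 and 3 had an unadjusted p under 0.05, of which Gbp7 alone kept it without GCV female 33, where the estimates of Gbp2 and Gbp5 were -1.95 and -2.83, beside -2.27 and -3.04 with it. Gbp7 was at 23.3, 21.6 and 27.5 CPM in the GCV females and at 43.2, 72.1 and 101.3 CPM in the VEH females. The GCV females lay close together and below each VEH female (log2 fold change -1.57, SE 0.47, adjusted p = 0.646, edgeR). Gbp2 averaged 7.81 ± 5.43 CPM with GCV and 40.5 ± 25.6 with VEH (SD, n = 3), and Gbp5 0.841 ± 0.734 and 8.60 ± 7.46, with 0 counts of Gbp5 in GCV female 33. The genes for ADP-ribosylation, Parp9 and Parp14, and Dtx3l, the ubiquitin ligase that partners PARP9, had log2 fold changes of -0.91, -1.05 and -1.13. Each of these 3 had an unadjusted p under 0.05 and no overlap. In Dtx3l, GCV female 33 alone was far down, at 5.41 CPM against 35.9 and 40.9 in GCV females 31 and 35. Without it the estimates of Parp9, Parp14 and Dtx3l were -0.63, -0.95 and -0.745, and only that of Dtx3l had an unadjusted p under 0.05.

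Trim12c, a TRIM gene close to the restriction factor gene Trim5, had little spread within these groups. It was at 9.45, 6.95 and 8.72 CPM with GCV and at 17.7, 19.8 and 17.6 CPM with VEH. Both groups were narrow and well apart (log2 fold change -1.11, SE 0.32, adjusted p = 0.646, edgeR). Of the Ifit genes 0 of 4, and of the Oas genes 0 of 5, had an unadjusted p under 0.05, against 7.37% of all genes. Their median log2 fold changes were -1.05 and -0.15 (-1.30 and -0.70 without GCV female 33). The difference between roles was not tested. The 5 sensors of viral nucleic acid had estimates below 0 (median -0.49), while Isg15, a ubiquitin-like modifier, and Usp18, which removes it, had estimates above 0 (0.35 and 0.22), which were -0.02 and -0.08 without GCV female 33. Isg20, an exonuclease, had the highest estimate, 1.504, with GCV female 33 far above the rest, at 37.1 CPM against 4.43 and 5.54 in GCV females 31 and 35, and was -0.11 without it.

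Some markers of other cell types differed between these groups of females as well. The Kupffer cell marker sum was 107.5 to 322.1 CPM in GCV females and 291.1 to 932.0 CPM in VEH females. The stellate cell sum did not overlap, at 253.3 to 328.6 CPM in GCV females and 333.3 to 425.8 CPM in VEH females. The sums for hepatocytes, sinusoidal endothelium, monocytes and neutrophils, B cells, T and NK cells and plasmacytoid dendritic cells overlapped. Of 46 cell type markers, 6 had an unadjusted p under 0.05, against 7.37% of all genes. All 6 had estimates below 0, against 2.32% of all genes at that p, and none was called. They were Adgre1 of Kupffer cells (-2.22), Cd79a and Ms4a1 of B cells (-2.86 and -2.52), Kdr and Oit3 of sinusoidal endothelium, and Cd8a of T cells. Cd8a had 1, 0 and 0 counts in GCV females and 2, 11 and 39 in VEH females. The part of these cells in the values of the members was not tested.

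**Figure D3:**
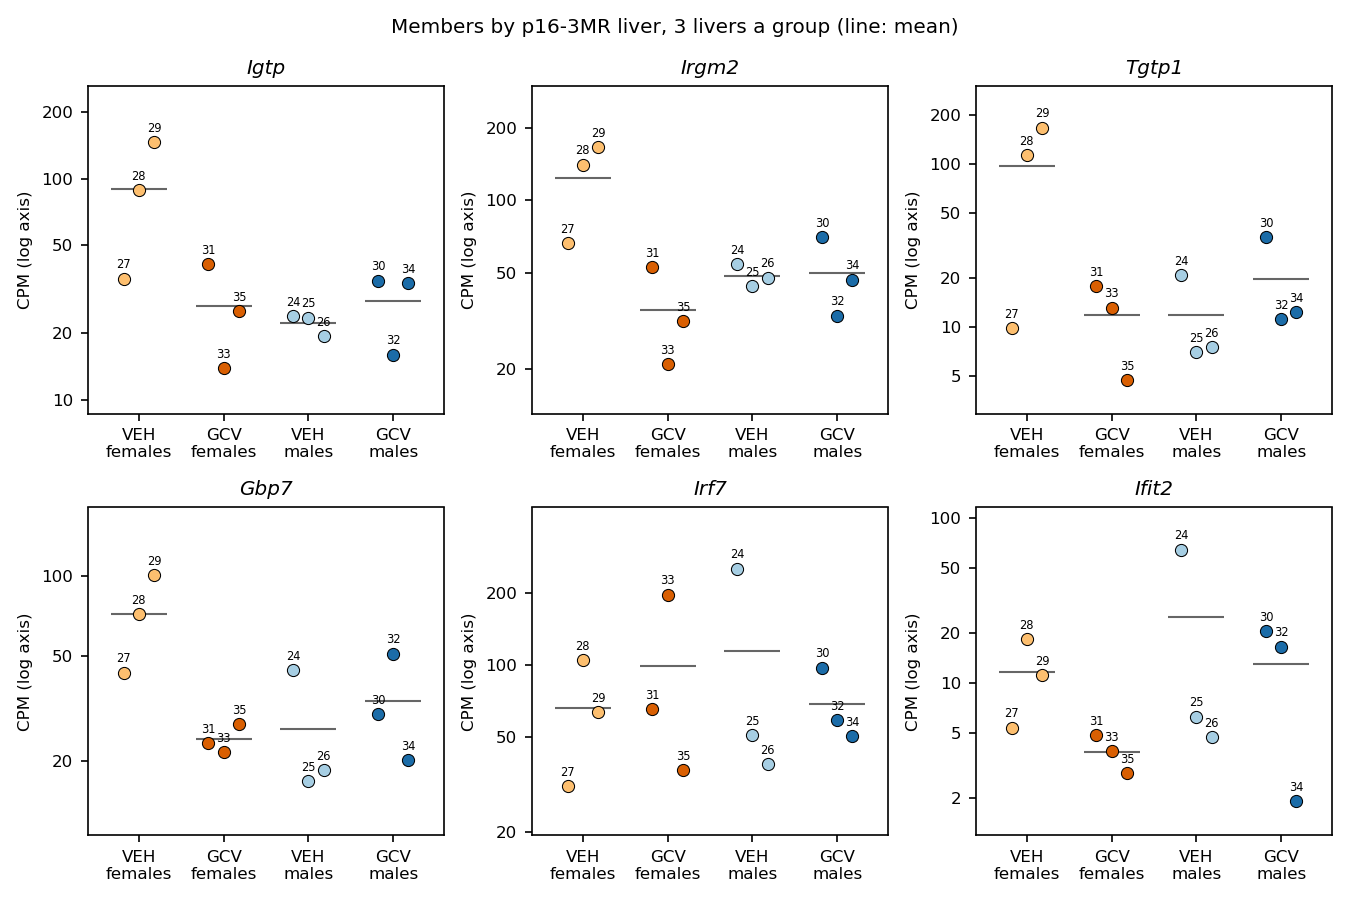
Levels of Igtp, Irgm2, Tgtp1, Gbp7, Irf7 and Ifit2 in CPM (log axis) in the 12 p16-3MR livers, 1 point per liver. A line marks the mean of each group of 3. For Irgm2 and Gbp7 the 3 GCV females lie below the 3 VEH females, while for Ifit2 and Irf7 the highest value is VEH male 24, at 64.4 and 251.6 CPM.

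In p16-3MR males, GCV and VEH livers overlapped for nearly every member. With edgeR's test, 0 of 49 members were called (each adjusted p = 1) against 0% of all genes, and 0 members had an unadjusted p under 0.05, against 1.91% of all genes (1.1% above and 0.814% below 0). DESeq2 called 0 members among 5 genes. The median log2 fold change was -0.21, against 0.04 for all genes, with 34 of 49 estimates below 0. The male result depended on VEH male 24: without it the median was 0.53, 37 of 49 estimates were above 0 and 7 members had an unadjusted p under 0.05, all above 0. All genes moved the same way in that fit, with a median of 0.12 and with 6.36% above and 1.51% below 0 at that p. Dtx3l was the 1 member without overlap, with GCV males at 38.2, 34.7 and 39.0 CPM and VEH males at 41.9, 39.5 and 46.1 CPM. GCV was lower by a small margin there, as was so without overlap for 2.83% of all genes, and 0 members were higher without overlap, against 3.57%. The Ifit genes had 4 of 4 estimates below 0 (median -0.79) and the guanylate-binding proteins 5 of 5 above 0 (median 0.35). Irf8, a factor of myeloid cells, was at 22.4, 48.7 and 5.19 CPM in GCV males and at 24.6, 4.46 and 5.94 CPM in VEH males. Its 3 high males, GCV 30 and 32 and VEH 24, were also those with the highest sums of monocyte and neutrophil markers, and this relation was not tested.

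Whether females and males responded differently to GCV was tested as an interaction in the 12 p16-3MR livers. The interaction called 0 of 49 members (lowest adjusted p = 0.976, edgeR) and 0% of all genes, and DESeq2 called 0 members among 3 genes. An unadjusted p under 0.05 was found for 8 members, all more negative in females, against 3.78% of all genes (1.87% lower and 1.91% higher): Tgtp1, Irgm2, Gbp7, Igtp, Gbp5, Gbp2, Trim12c and Irf8. The difference was -3.78 (SE 1.18, adjusted p = 0.976, edgeR) for Tgtp1, -1.85 for Irgm2, -1.92 for Gbp7 and -2.06 for Igtp, on the log2 scale. Over the 49 members, 29 differences were below 0, against 51.6% of all genes, and 20 above 0, against 48.4%, with a median of -0.39, against -0.04 for all genes. Without VEH male 24 the median was -1.36, with 17 members lower at an unadjusted p under 0.05, against 7.05% of all genes lower and 1.56% higher. The median was -0.002 without VEH female 28, and 4 members, against 0.995% of all genes, were lower at that p without VEH female 29.

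In wild-type mice, which lack the cassette, GCV against VEH called 0 of 26 members in females and 0 in males (edgeR), against 0.00791% and 0% of all genes. In females 0 members had an unadjusted p under 0.05, against 4.56% of all genes (2.25% higher and 2.32% lower), and 0 were without overlap, against 5.05% higher and 4.95% lower. The median log2 fold change was 0.01 in females and 0.09 in males. In males 3 members had an unadjusted p under 0.05, against 2.65% of genes above and 2.41% below 0. Without GCV male 2, 3 members were above and 3 below 0 at that p, against 3.59% and 3.92% of all genes. Without VEH male 3, 0 were above and 1 below, against 1.84% and 1.61%. Irf7 was at 20.1, 18.5 and 26.9 CPM in GCV males and at 31.7, 31.7 and 34.6 CPM in VEH males, without overlap (log2 fold change -0.59, SE 0.19, adjusted p = 0.889, edgeR). Irf8 was at 15.4, 15.4 and 21.4 CPM with GCV and at 13.8, 10.1 and 10.8 CPM with VEH, also without overlap (0.59, adjusted p = 0.889, edgeR). Igtp was at 13.8, 17.2 and 15.6 CPM with GCV and at 18.4, 24.7 and 32.3 CPM with VEH (-0.69, SE 0.26, adjusted p = 0.889, edgeR), without overlap. Trim12c was higher and Cmpk2 and Parp9 were lower without overlap too, so that 2 members were higher and 4 lower, beside 4.48% and 4.37% of all genes. The interaction of sex and GCV called 0 of 26 members, against 0.00791% of genes, with Igtp (0.89) and Irf8 (-0.76) at an unadjusted p under 0.05, against 4.45% of all genes (1.95% higher and 2.5% lower).

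Within each wild-type group, the members with the highest mean CPM of their role differed in spread. Iigp1 was at 485.7 ± 10.8 and 473.0 ± 27 CPM in GCV and VEH females and at 402.7 ± 9.05 and 430.8 ± 20.5 CPM in GCV and VEH males (SD, n = 3 each). Ifi27 was at 136.9 ± 9.01, 125.6 ± 18.4, 130.1 ± 16.9 and 120.8 ± 22.6 CPM in the same order, a spread that covers the differences between the groups. Stat2, a subunit of the ISRE-binding complex, was at 38.6 ± 4.7, 43.1 ± 5.91, 40.5 ± 8.64 and 33 ± 4.51 CPM. Ifih1 was at 44.9 ± 1.09, 41.3 ± 12.8, 38.1 ± 5.72 and 29.8 ± 5.11 CPM. Samhd1, which depletes nucleotides needed for viral DNA synthesis, was at 26.1 ± 8.76 and 21.9 ± 2.87 CPM in females and at 17.5 ± 1.43 and 18.2 ± 0.6 CPM in males.

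Of the comparisons made with edgeR's test, members passed in that of the sexes in wild-type mice, over both treatments. Gbp7, Trim30a, Xaf1, Igtp, Trim12c and Parp14 were higher in females, by 0.60 to 1.29 on the log2 scale. These 6 of 26 members were called with edgeR's test, against 3.89% of all genes called higher in females, and 0 of 26 were called lower, against 4.05%. Estimates were above 0 for 25 of 26 members, against 53.5% of all genes, the exception being Oas3 at -0.10. The median log2 difference was 0.36, against 0.03 for all genes. At an unadjusted p under 0.05 there were 14 members higher and 0 lower, against 10.4% and 9.7%.

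Gbp7 had the lowest adjusted p of the members. In 6 females its level was 46.1 CPM at the lowest, 55.4 at the median and 73.9 at the highest, and in 6 males it was 18.2, 23.2 and 31.1. Every female was above every male (log2 difference 1.29, SE 0.14, adjusted p = 7.53e-07, edgeR). Trim30a, a TRIM protein that restrains Toll-like receptor signalling, ran from 12.9 through a median of 14.4 to 20.8 CPM in females and from 3.87 through 7.62 to 9.46 in males, without overlap (1.15, SE 0.19, adjusted p = 0.000288, edgeR). Xaf1, a partner of the apoptosis inhibitor XIAP, ran from 15.3 through 16.5 to 19.2 CPM in females and from 5.74 through 8.69 to 11.03 in males, again without overlap (0.98, SE 0.16, adjusted p = 0.000317, edgeR). These 3 were called under every alternative tried.

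Igtp ran from 23.98 through 37.7 to 55.4 CPM in females and from 13.8 through 17.8 to 32.3 in males. The overlap came from VEH mice, with VEH female 6 at 23.98 CPM and VEH males 2 and 3 at 24.7 and 32.3 (log2 difference 1.02, SE 0.18, adjusted p = 0.000461, edgeR). In VEH mice alone its difference was 0.57 (adjusted p = 0.248, edgeR). Trim12c ran from 10.7 through 12.5 to 18.1 CPM in females and from 6.995 through 7.97 to 9.12 in males, without overlap (0.73, SE 0.17, adjusted p = 0.00822, edgeR). Parp14, which transfers ADP-ribose to proteins, ran from 20.5 through 30.96 to 39.2 CPM in females and from 12.7 through 21.3 to 27.4 in males, with overlap (0.60, SE 0.18, adjusted p = 0.0427, edgeR). Parp14 lost its call in 8 of the 12 fits that left out 1 liver. The 4 members without overlap compare with 2.31% of all genes higher in females without overlap.

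Other readable members came near the threshold. Irf1, the factor downstream of interferon gamma, had a log2 difference of 0.53 (adjusted p = 0.0548), Usp18 of 0.75 (0.0616) and Iigp1 of 0.20 (0.0632), by edgeR's test. Iigp1 was at 441.8 to 495.0 CPM in females and at 395.9 to 444.2 CPM in males, a narrow spread in both, and DESeq2 called it, for 7 members among 1039 genes in all. Tgtp1 had a large difference with a large error (1.21, adjusted p = 0.111). The 5 transcription factor genes had 5 of 5 estimates above 0 with a median of 0.21, and the 3 immunity-related GTPases had 3 of 3 with a median of 1.02. In VEH mice alone, 4 members were called, Usp18, Gbp7, Trim30a and Xaf1, among 483 of 12643 genes.

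Some technical and cell type values also differed between the wild-type sexes. TMM factors were 1.11 to 1.14 in females and 0.835 to 0.975 in males, and the 10 most abundant genes took 18.6 to 19.5% and 23.2 to 29.5% of counts. The summed markers of T and NK cells (4 of 6 readable) were at 2.49 to 7.99 CPM in females and at 0.821 to 1.597 CPM in males, with Trbc2 (1.70) and Gzma (2.70) called higher in females by edgeR's test. Stellate cell markers summed to 251 to 297 CPM in females and to 188 to 241 CPM in males, with Lrat and Dcn called. The hepatocyte sum (2 of 6 readable) went the other way without overlap, at 12240 to 13670 CPM in females and 13850 to 15610 CPM in males. The Kupffer cell sums overlapped, at 103 to 154 and 84.5 to 131 CPM, as did those of B cells, sinusoidal endothelium, monocytes and neutrophils, and plasmacytoid dendritic cells. In all, 4 of 26 markers were called higher in females and 2 lower, Serpina1a of hepatocytes and S100a8 of neutrophils, and their part in the result was not tested.

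**Figure D4:**
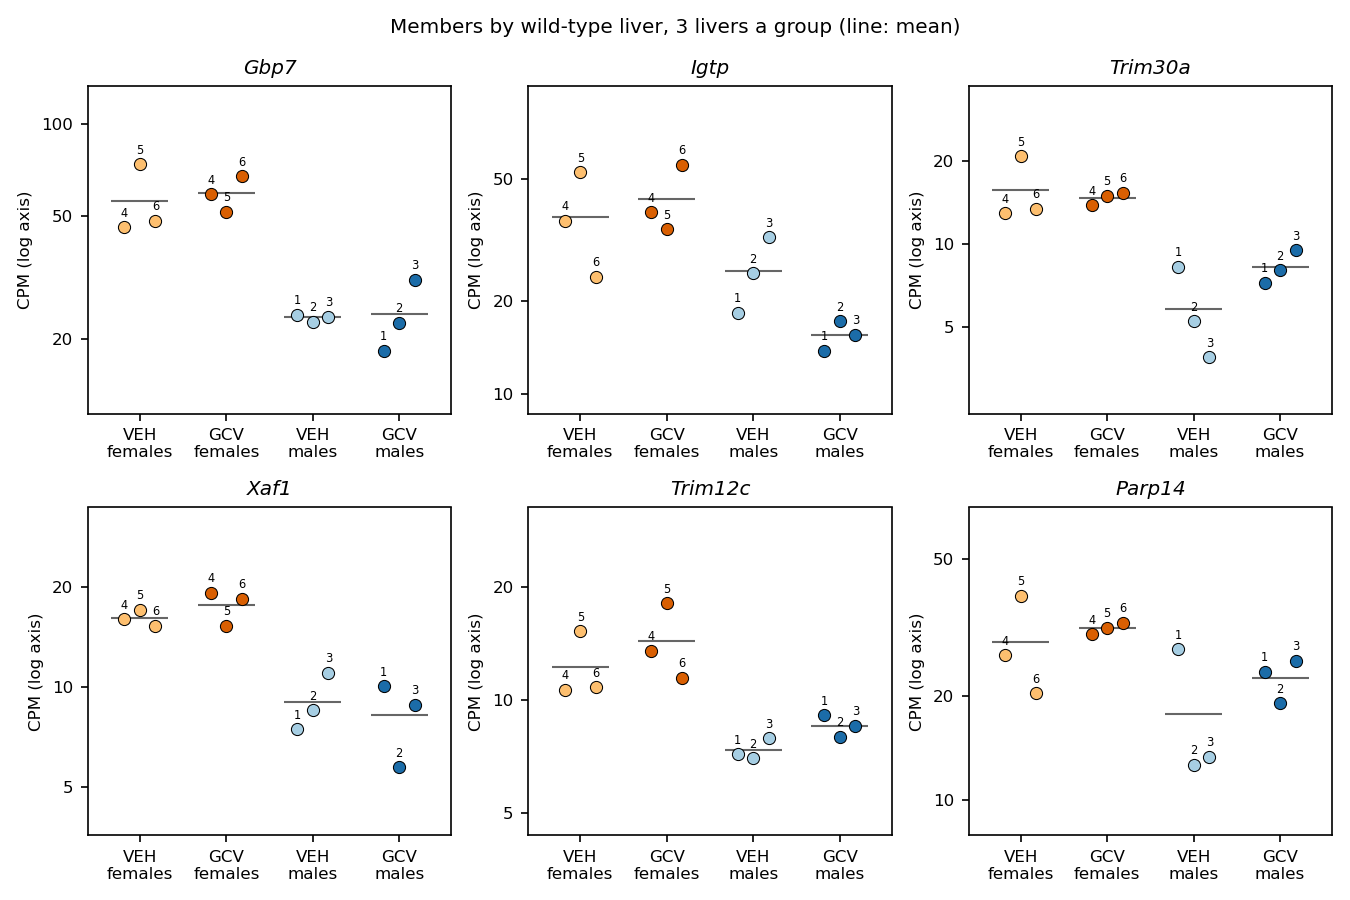
Levels of Gbp7, Igtp, Trim30a, Xaf1, Trim12c and Parp14 in CPM (log axis) in the 12 wild-type livers, 1 point per liver. A line marks the mean of each group of 3. For Gbp7 all 6 females lie between 46.1 and 73.9 CPM and all 6 males between 18.2 and 31.1 CPM. GCV and VEH livers of a sex mix for Gbp7, while GCV and VEH males do not overlap for Igtp and Trim12c.

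In p16-3MR mice, the same comparison of the sexes called 0 of 49 members, against 0.303% of all genes (edgeR). The 6 members called in wild-type mice had log2 differences of 0.98 for Igtp, 0.48 for Gbp7, 0.11 for Trim12c, -0.19 for Parp14, -0.24 for Xaf1 and -0.63 for Trim30a. Igtp was the 1 member with an unadjusted p under 0.05, against 7.05% of all genes (2.61% higher and 4.44% lower), with an estimate above 0 (SE 0.36, adjusted p = 0.674, edgeR). In Igtp, females without GCV female 33 ran from 25.2 to 145.7 CPM and males from 16.0 to 34.7 CPM, and the high females were VEH 28 and 29. Over the 49 members, 33 estimates were below 0, against 55.8% of genes, and 16 above 0, against 44.2%, with a median of -0.19, against -0.08 for all genes. Without VEH male 24 the median was 0.12 and 5 members were higher at an unadjusted p under 0.05, against 2.13% of all genes. In VEH mice alone 4 members were, against 1.25%. No member was without overlap between the sexes, against 0.317% of genes higher and 0.299% lower.

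**Figure D5:**
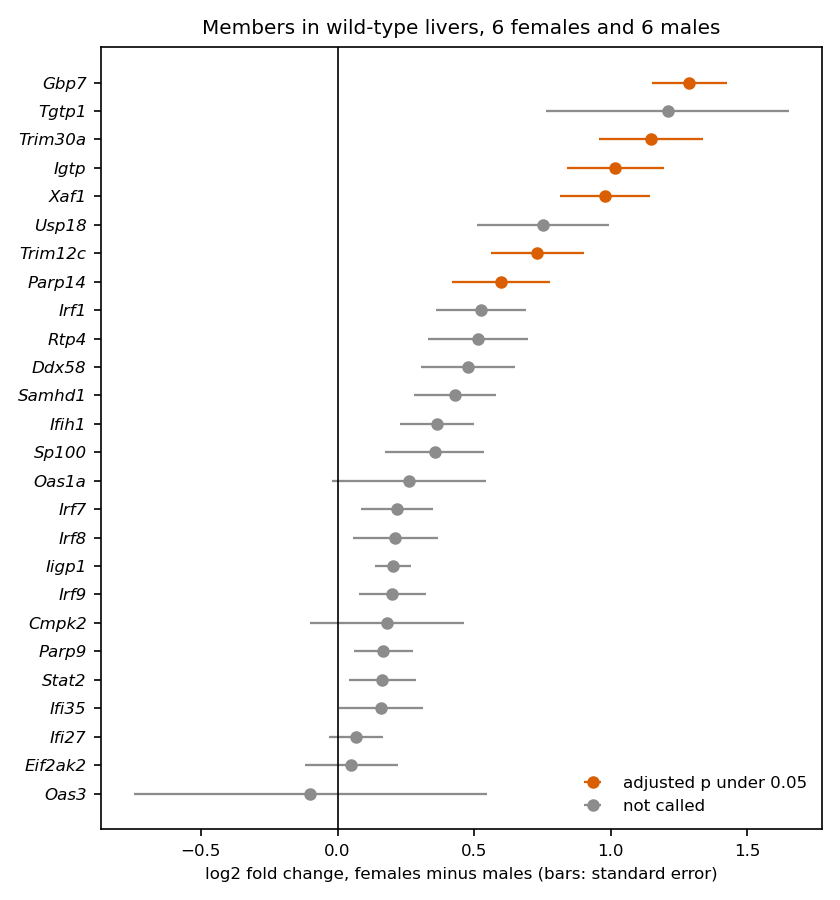
Log2 difference, females minus males over both treatments, of the 26 readable members in wild-type livers, with SE bars and the 6 called members marked. Estimates lie to the right of 0 for 25 of 26 members, and Gbp7 is highest at 1.29.

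Of the genes that make, sense and relay interferon, 29 were tested in p16-3MR mice. Interferon transcripts themselves were barely measured: 1 of 8 ligand genes was in the p16-3MR table, Ifng, at 0 to 0.141 CPM, under the limit of 3 counts. In p16-3MR females 0 of the 29 were called for GCV against VEH by edgeR's test. At an unadjusted p under 0.05, 3 of the 29 were lower, against 2.32% of all genes, and 0 higher, against 5.05%. Among them, the kinase gene Jak2 had an estimate of -0.92 on the log2 scale with an unadjusted p under 0.05. Tlr9, the receptor for unmethylated DNA, also had an unadjusted p under 0.05, on 0, 0 and 3 counts in GCV females and 16, 14 and 43 counts in VEH females.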

How the data were processed

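The libraries were trimmed with Trim Galore 0.6.10, checked with FastQC 0.11.9 and quantified with Salmon 1.10.3, and tximport summed transcripts to genes. Genes with fewer than 3 reads were excluded upstream. The authors gave the sums as estimated counts per gene, in whole numbers with no scaling for library size, taken from the 3′ ends of transcripts. Close copies and length offsets can therefore affect single genes, and whether counting used strand is not given in the sources used here.

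Each table was fitted on its own with edgeR 4.0.16 in R 4.3.3: TMM scaling, 1 mean per group over 12 livers, a total of at least 3 counts, the two-sided quasi-likelihood test and p-values adjusted by Benjamini and Hochberg over the whole table, with calls at an adjusted p under 0.05. The sexes were compared over the mean of both treatments. SE is the log2 fold change divided by the square root of F. The prior count of log2 CPM was 2. "No overlap" means that every CPM of a group lay above every CPM of the other. Symbols and coordinates came from GENCODE M21 (GRCm38), and promoters from RefSeq.

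The fits were also run on simulated counts, of which no result is given or used here. Not every gene of the pathway list is reported here. The members, the pathway and marker lists, the tests and the alternatives were chosen with earlier results of these data known. Chosen for description were up to 8 members per comparison with the lowest p under 0.05, the members without overlap, and examples of each role. Some of these are named without their values. Mice of a group are separate animals. edgeR's test sets each difference against a spread between animals, estimated over all groups in the fit and moderated across genes. The alternatives were DESeq2 1.42.0, its size factors in edgeR, edgeR's filterByExpr, a replicate block in wild-type mice, VEH mice alone, and each liver left out. For GCV against VEH, a fit of only the 6 livers of that sex was an alternative too. Leaving out GCV female 33 together with VEH male 24, DESeq2 without GCV female 33 and correlations without VEH male 24 were chosen after seeing the data.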

Additional observations from a re-analysis of the deposited data

How the results depend on the processing

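Counts of called members stayed within 1.5 times their main value under every alternative except DESeq2, which called 2 members in p16-3MR females given GCV, where edgeR called 0. Median log2 fold changes of the members moved by less than their spread between livers except for males and the sex difference in p16-3MR mice. With 1 liver left out, the male median ran from -0.370 to 0.525, and that of the sex difference from -1.359 to -0.002. The values 0.525 and -1.359 came without VEH male 24, and -0.002 without VEH female 28. Without GCV female 33 and VEH male 24 these medians were 0.504 and -1.301. The cause was not tested. In the comparison of wild-type sexes, 5 to 9 members were called with 1 liver left out, among 783 to 1251 genes. With only the 6 livers of that sex, 0 members were called for GCV against VEH in either genotype. In that fit 16 members were lower in p16-3MR females at an unadjusted p under 0.05, against 3.68% of all genes. In wild-type females it called 17 genes. Replicate numbers are shared between groups in wild-type mice only. Correlations of deviations between GCV and VEH livers of the same number were -0.057 to 0.0018 in females and -0.066 to 0.283 in males. Between livers of different numbers they were -0.045 to 0.085 in females and -0.349 to 0.170 in males. In males the highest values, 0.283 and 0.196, were of shared numbers. These values cannot settle whether the numbers mark pairs. With a replicate block, 0 members were called in the 3 GCV contrasts of wild-type mice, while the genes called numbered 106 in females, 68 in males and 79 for the sex difference, against 1, 0 and 1. The lowest adjusted p of a member with the block was 0.635, 0.113 and 0.107 (edgeR). With 3 livers per group, and 1 p16-3MR library with few counts on the members, differences may have gone uncalled. The smallest difference that could be called is not given here. In p16-3MR females, Trim12c was not called by edgeR's test although its groups were narrow and well apart. The study had already listed Trim12c as lower with GCV from these same livers, so it is not an independent example.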
